A study of Mus musculus with 5 samples.

Results

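MG5 microglial cells were exposed to 10 µM bexarotene (BEX) for 6 h and compared with untreated MG5 cells. MG5 is a mouse cell line used as a model of microglia, the resident macrophages of the brain. The labels give its genotype as WT in every group, and all cells were grown in medium partly conditioned by A1 cells, an astrocyte-like mouse line. The comparison used 4 of the 5 libraries of the series: 3 of BEX (replicates 1 to 3) and 1 untreated (replicate 3). The remaining library came from cells given 10 µM 6OHA, a second agonist of the same receptor, for 6 h (replicate 2), and it entered the fit and the last comparison below. The labels name no solvent and no incubation time for the untreated cells, and the other untreated and 6OHA replicates of the study were not analysed here. Of 45777 genes in the table, the 13316 with a mean of at least 20 counts over the 5 libraries were tested.

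BEX is a synthetic rexinoid that activates the retinoid X receptors (RXR), nuclear receptors that bind DNA as partners of other nuclear receptors. Several of these partners, among them the liver X receptors, the peroxisome proliferator-activated receptors and the vitamin D receptor, sense lipids or hormones, so an RXR agonist can act on genes of many programmes. In macrophages and microglia these receptors are known for the control of lipid handling and of inflammatory genes.

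The libraries held 33823181 to 40545305 counts. A change was called when the quasi-likelihood test of edgeR gave a Benjamini-Hochberg adjusted p under 0.05 and all 3 BEX libraries lay on the same side of the untreated library. Levels are CPM, read counts scaled to the library total times its TMM factor, a correction for library composition (0.993 to 1.003 here). They depend on transcript length as well as abundance. Each series of values below runs from the untreated library to BEX 1, BEX 2 and BEX 3. Nothing in the labels says that the BEX replicates were separate cultures, so p-values measure the spread between these 3 libraries, and the lone untreated library was assumed to vary like them. The BEX libraries were close to each other, with a median SD of 0.071 on the log2(CPM + 0.1) scale. All 18 markers of microglia and macrophages were measured, and their summed level was 14727 CPM untreated and 14108 to 14373 CPM with BEX. Of these markers, Tmem119 was called higher and Cd68, Fcer1g, Spi1 and P2ry12 lower. Most astrocyte markers were near 0: Aqp4 and Sox9 had no counts in any library, and 2 of 10 markers were tested. Of these, Aldh1l1 was at 16.4 CPM untreated and 14.7 to 15.7 CPM with BEX and was not called. Slc1a2 was called lower and went from 7.09 to 2.98, 4.11 and 2.89 CPM. The summed level of the astrocyte markers was 24.1 CPM untreated and 18 to 20.5 CPM with BEX. In bulk RNA, fewer cells of a type and less RNA per cell cannot be told apart.

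Library composition moved with the groups in several ways. When genes were put into 5 equal bins by transcript length, of those in the shortest bin (204 to 1984 bases), 3.84% were called higher and 11.1% lower with BEX, whereas of those in the longest bin (at least 5232 bases) 21.8% were called higher and 6.02% lower. Genes in the bin with the lowest GC content were called higher in 15.1% of cases and those in the bin with the highest GC content in 6.9%. Among 809 pseudogenes, 5 were called higher and 32 lower, with a median log2 fold change of -0.13. Over all genes tested, 9.45% were called higher and 7.82% lower, so pseudogenes were called less often than the background in both directions. The ribosomal repeat transcript Rn18s-rs5 went from 998 to 495, 509.5 and 377 CPM, and the nuclear long non-coding RNA Malat1 went from 176 to 393, 349 and 358 CPM. Rn7s1 and Rn7s2, near-identical copies of the signal recognition particle RNA, together measured 8.55 CPM untreated and 3.12, 1.1 and 1.46 CPM with BEX. Poly-A selection is meant to remove most ribosomal and other non-polyadenylated RNA. The part of these differences in the results below was not tested, apart from a fit with length and GC offsets, which called 1124 genes higher and 995 lower among the 11455 genes with both values.

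**Figure D1:**
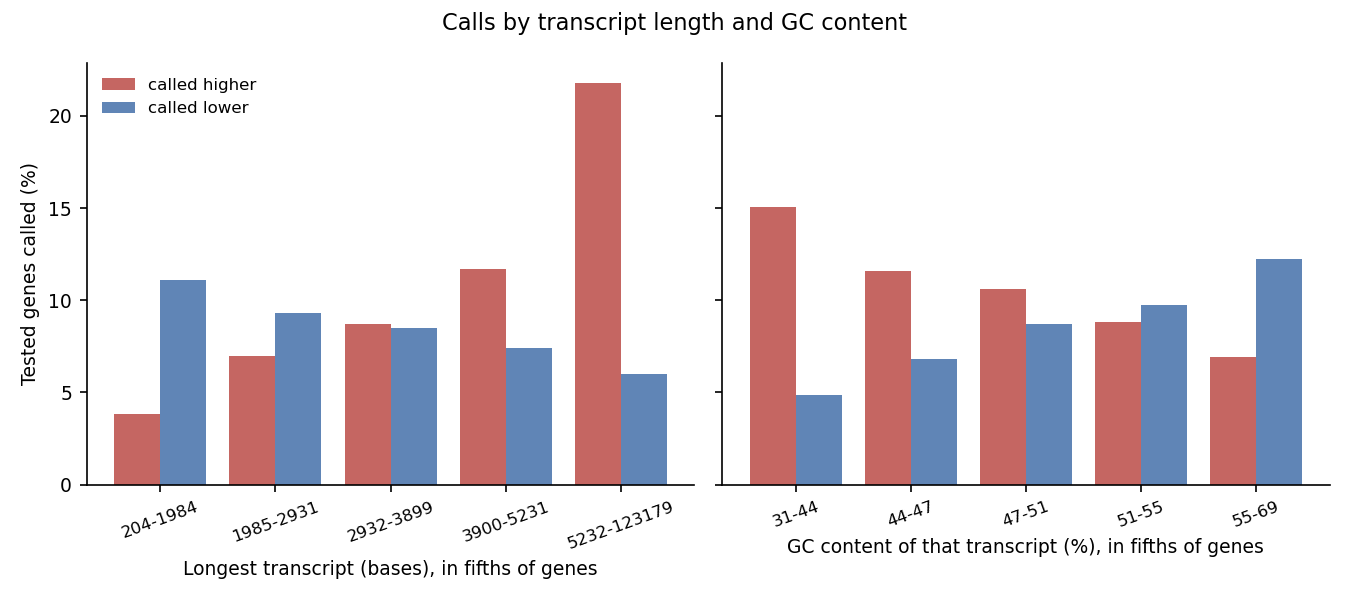
Share of tested genes called higher or lower with BEX (%, vertical axis) in 5 equal bins of genes by transcript length and by GC content (horizontal axis). The share called higher went from 3.84% in the shortest bin to 21.8% in the longest, and the share called lower from 11.1% to 6.02%.

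Against the lone untreated library, 1258 genes (9.45% of those tested) were called higher with BEX and 1041 (7.82%) lower, which together made 17.3% of the genes tested. Most of these changes were small. Of the 2299 called genes, 1817 (79%) differed by less than 1.5-fold, and the median absolute log2 fold change among them was 0.33. Among the tested genes, the large changes were mostly rises. At least 2-fold higher were 131 genes (0.984%) and at least 2-fold lower 51 (0.383%), and beyond 4-fold there were 47 rises and 5 falls. The filter on the mean count is uneven here, because BEX libraries outnumber the lone untreated library. A gene with few counts passes it more easily when present only with BEX than when present only untreated. With no filter on low counts, 111 genes were called at least 2-fold higher and 33 at least 2-fold lower. How much of the excess of large rises comes from the filter was not tested. The median log2 fold change over all tested genes was -0.0038. Rises made 54.7% of the calls in the main fit. In the alternatives on counts they made from 53.0% (length and GC offsets) to 60.3% (DESeq2, another test). They made 66.6% on log2(TPM + 1), with 844 genes higher and 423 lower, and 67.3% on log2(TPM + 0.1).

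**Figure D2:**
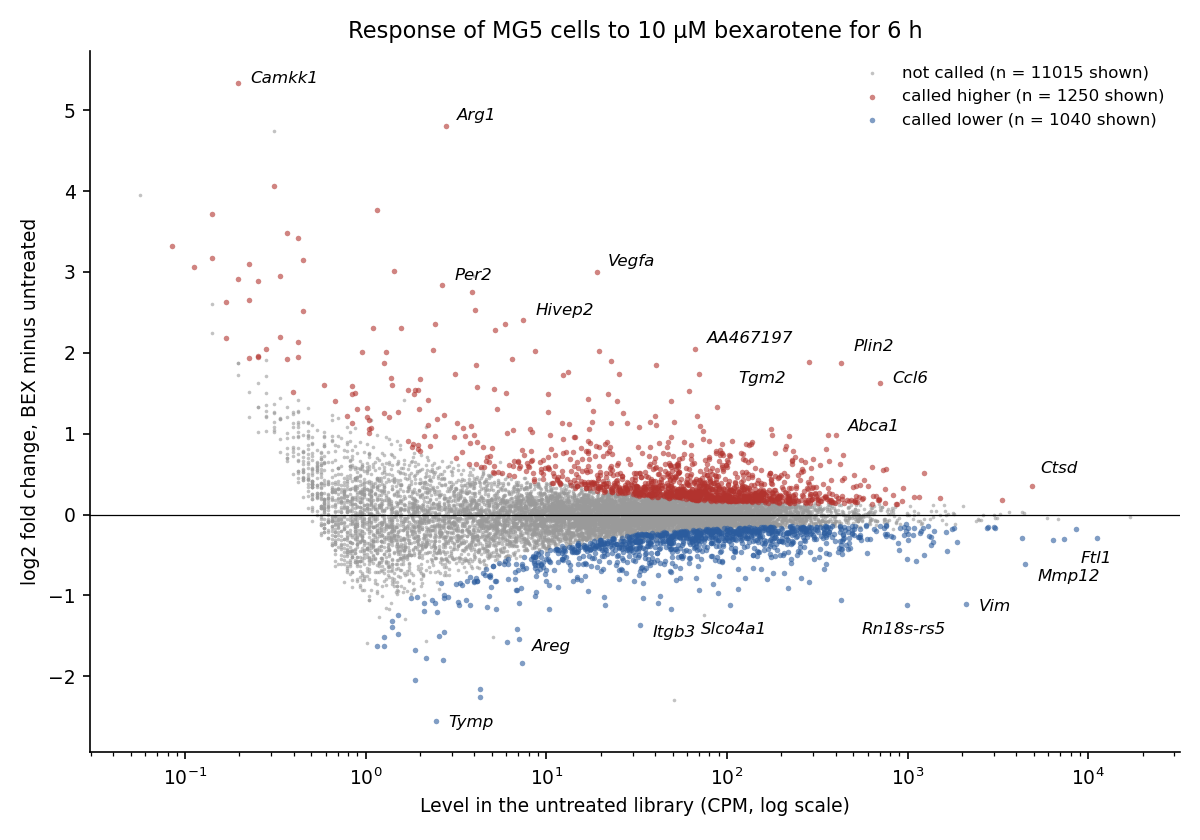
log2 fold change of BEX against untreated (vertical axis) for each tested gene by its level in the untreated library (CPM, log axis), with genes called higher in red, called lower in blue and not called in grey. Genes with 0 counts in a group are not drawn. Rises reach further from 0 than falls, up to a log2 fold change of 5.34 for Camkk1 and 4.80 for Arg1. Vim fell by 1.11 and is not the largest fall, since Tymp fell further.

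Plin2, Tgm2, Arg1 and Ccl6 all rose well beyond the spread of the BEX libraries. Plin2, which encodes a protein that coats lipid droplets, lies on chromosome 4 from 86626910 to 86670217 (mm10) and went from 429 to 1576, 1570.2 and 1560.2 CPM (log2 fold change 1.87 ± 0.038 SE, adjusted p = 3.12e-13). Tgm2 on chromosome 2 from 158116405 to 158146392, the gene of the protein cross-linking enzyme transglutaminase 2, went from 285 to 1019, 1057 and 1071 CPM (log2 fold change 1.88 ± 0.043 SE, adjusted p = 4.96e-13). Ccl6 on chromosome 11 from 83587886 to 83593087, a CC chemokine, went from 702 to 2195, 2148 and 2179 CPM (log2 fold change 1.63 ± 0.038 SE, adjusted p = 4.96e-13). For all of these the 3 BEX values lay within a narrow band, far above the untreated value. Arg1 on chromosome 10 from 24915207 to 24927470, the gene of the arginine-splitting enzyme arginase 1, started from a low level and went from 2.78 to 75.2, 84.3 and 73.4 CPM (log2 fold change 4.80 ± 0.22 SE, adjusted p = 4.45e-12). Vegfa, which encodes a growth factor for blood vessels, had the largest rise of any gene above 10 CPM untreated, from 19.1 to 151, 156 and 152 CPM (log2 fold change 3.00 ± 0.074 SE, adjusted p = 3.12e-13). An exon of Tgm2 overlaps Rprd1b on the opposite strand over 8.03% of its exon bases, and the strand setting of the counting was not given.

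RXR and its partners bind repeats of the hexamer AGGTCA, so the 250 bases before the start of these genes were searched for it on both strands. The windows below are from RefSeq for GRCm38.p6 and are shown for genes that rose and whose window held a match, chosen after the search was run. They lie at chr4:86670060-86670309 (minus strand, Plin2), chr11:83593088-83593337 (minus strand, Ccl6) and chr2:122637637-122637886 (plus strand, AA467197, a small mitochondrial protein gene also known as Nmes1). Capitals mark AGGTCA read on the opposite strand (TGACCT) in Plin2 and Ccl6, and in AA467197 a direct repeat with no spacer, GGTTCAGGTTCA on the opposite strand.
Plin2: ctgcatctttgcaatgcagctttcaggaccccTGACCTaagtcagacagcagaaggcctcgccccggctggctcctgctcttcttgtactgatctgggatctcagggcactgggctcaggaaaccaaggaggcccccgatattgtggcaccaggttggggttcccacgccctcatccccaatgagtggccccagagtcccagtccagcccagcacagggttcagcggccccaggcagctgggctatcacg
Ccl6: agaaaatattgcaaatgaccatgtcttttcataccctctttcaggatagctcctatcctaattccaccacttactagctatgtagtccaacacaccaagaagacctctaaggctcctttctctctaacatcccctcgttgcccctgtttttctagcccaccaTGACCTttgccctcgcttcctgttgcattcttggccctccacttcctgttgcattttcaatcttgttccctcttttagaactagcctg
AA467197: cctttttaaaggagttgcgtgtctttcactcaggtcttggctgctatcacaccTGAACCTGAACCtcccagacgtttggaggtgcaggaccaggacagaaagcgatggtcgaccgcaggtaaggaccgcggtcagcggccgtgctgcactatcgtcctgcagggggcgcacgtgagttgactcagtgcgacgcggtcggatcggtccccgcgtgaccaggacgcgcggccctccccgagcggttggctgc
The AGGTCA match begins 88 bases before the start of Ccl6 and 218 bases before the start of Plin2 that the window belongs to. The RefSeq span of Plin2 begins 158 bases further upstream, so that the match lies 60 bases before its outer end. Such a match was common: it occurred in 13.3% of the 9931 tested genes with a window, in 14.1% of 977 genes called higher, in 20.6% of 97 at least 2-fold higher and in 14.4% of 786 called lower. A further search, which overlaps the first, took direct repeats with spacers of 0 to 5 bases in which each copy could be AGGTCA, or this hexamer with its first base changed to give GGGTCA, or with an inner base changed to give AGTTCA, or with both to give GGTTCA. Such repeats were found in 51 genes (0.51%). They occurred in 6 genes called higher (0.61% of those), of which 3 were at least 2-fold higher (3.09% of those), and in 2 called lower (0.25%). The share among genes called higher is near that over all genes, and the other counts are too small to read. AA467197 went from 66.1 to 291, 252 and 276 CPM (log2 fold change 2.04 ± 0.072 SE, adjusted p = 5.31e-11). The Vegfa windows held neither pattern and are not shown. These matches describe the letters of the windows and not binding.

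In CPM, the gains summed to 40871 CPM over the genes called higher and the losses to -37643 CPM over those called lower. After Ccl6, the largest gain was of Ctsd, the lysosomal protease cathepsin D, which went from 4868 to 6209, 6298 and 6211 CPM. Psap, the precursor of the saposins that help lysosomal enzymes split sphingolipids, went from 3322 to 3755, 3927 and 3655 CPM, and Fn1, the matrix protein fibronectin, went from 1235 to 1746, 1881 and 1660.4 CPM. Abca1, the exporter of cellular cholesterol, went from 399.8 to 798, 814 and 766 CPM. Ccl9 and Ccl2, chemokines that attract myeloid cells, had log2 fold changes of 0.56 and 0.55, and C5ar1, the receptor of complement fragment C5a, of 0.98.

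On the side of losses, Ftl1, the ferritin light chain, went from 11216 to 8888, 8712 and 9841 CPM, with BEX 3 apart from the other BEX libraries. Fth1, the heavy chain, went from 6363 to 4909.6, 5087 and 5357 CPM. Both have processed pseudogenes that can share reads, so their values are uncertain. Mmp12, macrophage elastase, went from 4472 to 2923, 2803 and 3023 CPM (log2 fold change -0.62 ± 0.042 SE, adjusted p = 3.53e-08), and Spp1, osteopontin, went from 7314 to 5977, 5542 and 6241 CPM. Vim, the intermediate filament protein vimentin, went from 2108 to 966, 967 and 998 CPM (log2 fold change -1.11 ± 0.039 SE, adjusted p = 1.83e-11), the largest relative fall among these genes apart from Rn18s-rs5. Smaller falls were seen in Actb, cytoplasmic actin (-0.29 on the log2 scale), in Lyz2, lysozyme (log2 fold change -0.17), in Fcgr2b, the inhibitory receptor for immunoglobulin G (log2 fold change -0.45), and in Cd14, a co-receptor for bacterial lipopolysaccharide (log2 fold change -0.33). On log2(TPM + 1) the calls for Ftl1, Spp1, Lyz2 and Psap were lost, with adjusted p = 0.0939, 0.0637, 0.193 and 0.053, and that for Ftl1 was also lost in DESeq2.

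**Figure D3:**
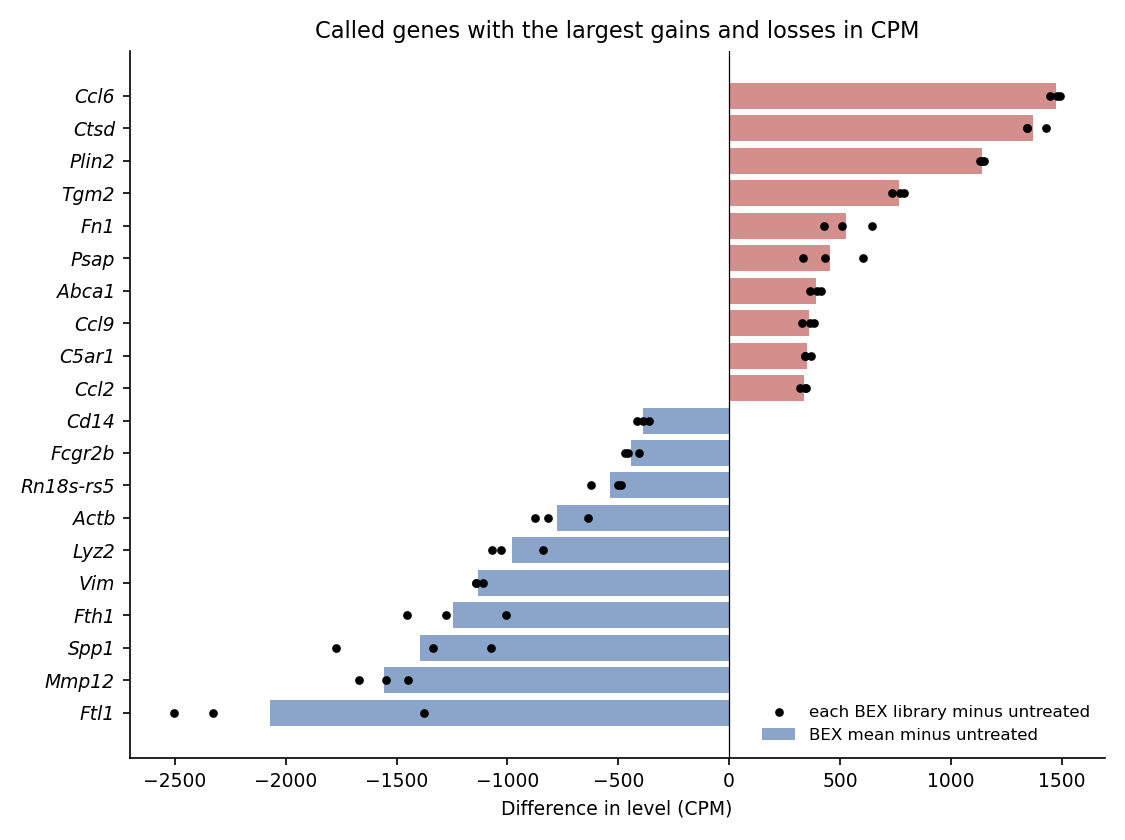
Difference in level between BEX and untreated (CPM, horizontal axis) for the 10 called genes with the largest gains and the 10 with the largest losses. Bars are the BEX mean minus the untreated library and points the 3 BEX libraries. All points of a gene lie on the same side of 0, as the calling rule requires, and the spread is widest for Ftl1.

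The genes were also read by function, over 39 families and pathways. Against the background of 9.45% higher and 7.82% lower, some families moved in both directions, and several moved mainly in a single direction. The share called higher lay within 3 percentage points of the background for 11 lists: Rab GTPases, ubiquitin ligase adaptors, splicing factors, numbered zinc-finger genes, nucleotide metabolism, sphingolipids, phosphoinositide signalling, calcium-dependent kinases, extracellular proteases, heat shock proteins, and microRNA hosts with named long non-coding RNAs. The share called lower lay as near for 10 lists: Rab GTPases, Wnt and Notch, autophagy, cyclic nucleotide signalling, eicosanoids, extracellular matrix, fatty acid oxidation, nucleotide metabolism, solute carriers, and microRNA hosts with named long non-coding RNAs. Those counts are no result about the lists.

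The counts per list also depended on the test. In DESeq2 the number called higher fell by over 1.5 times in 6 lists and the number called lower in 14, and on log2(TPM + 1) in 14 and 30. The balance of rises and falls turned or became even in 6 lists in DESeq2. These had 12 higher and 11 lower for G protein-coupled receptors, 12 and 9 for MAP kinases and phosphatases, 4 and 4 for extracellular matrix, 7 and 8 for glycosyltransferases, 12 and 10 for ion channels, and 5 and 2 for lipid droplet and lipolysis genes. On log2(TPM + 1) it did so in 6 lists, with 13 higher and 8 lower for G protein-coupled receptors, 7 and 4 for MAP kinases and phosphatases, 6 and 3 for interleukins, 6 and 6 for ion channels, 5 and 2 for lipid droplet and lipolysis genes, and 3 and 3 for microRNA hosts with named long non-coding RNAs.

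**Figure D4:**
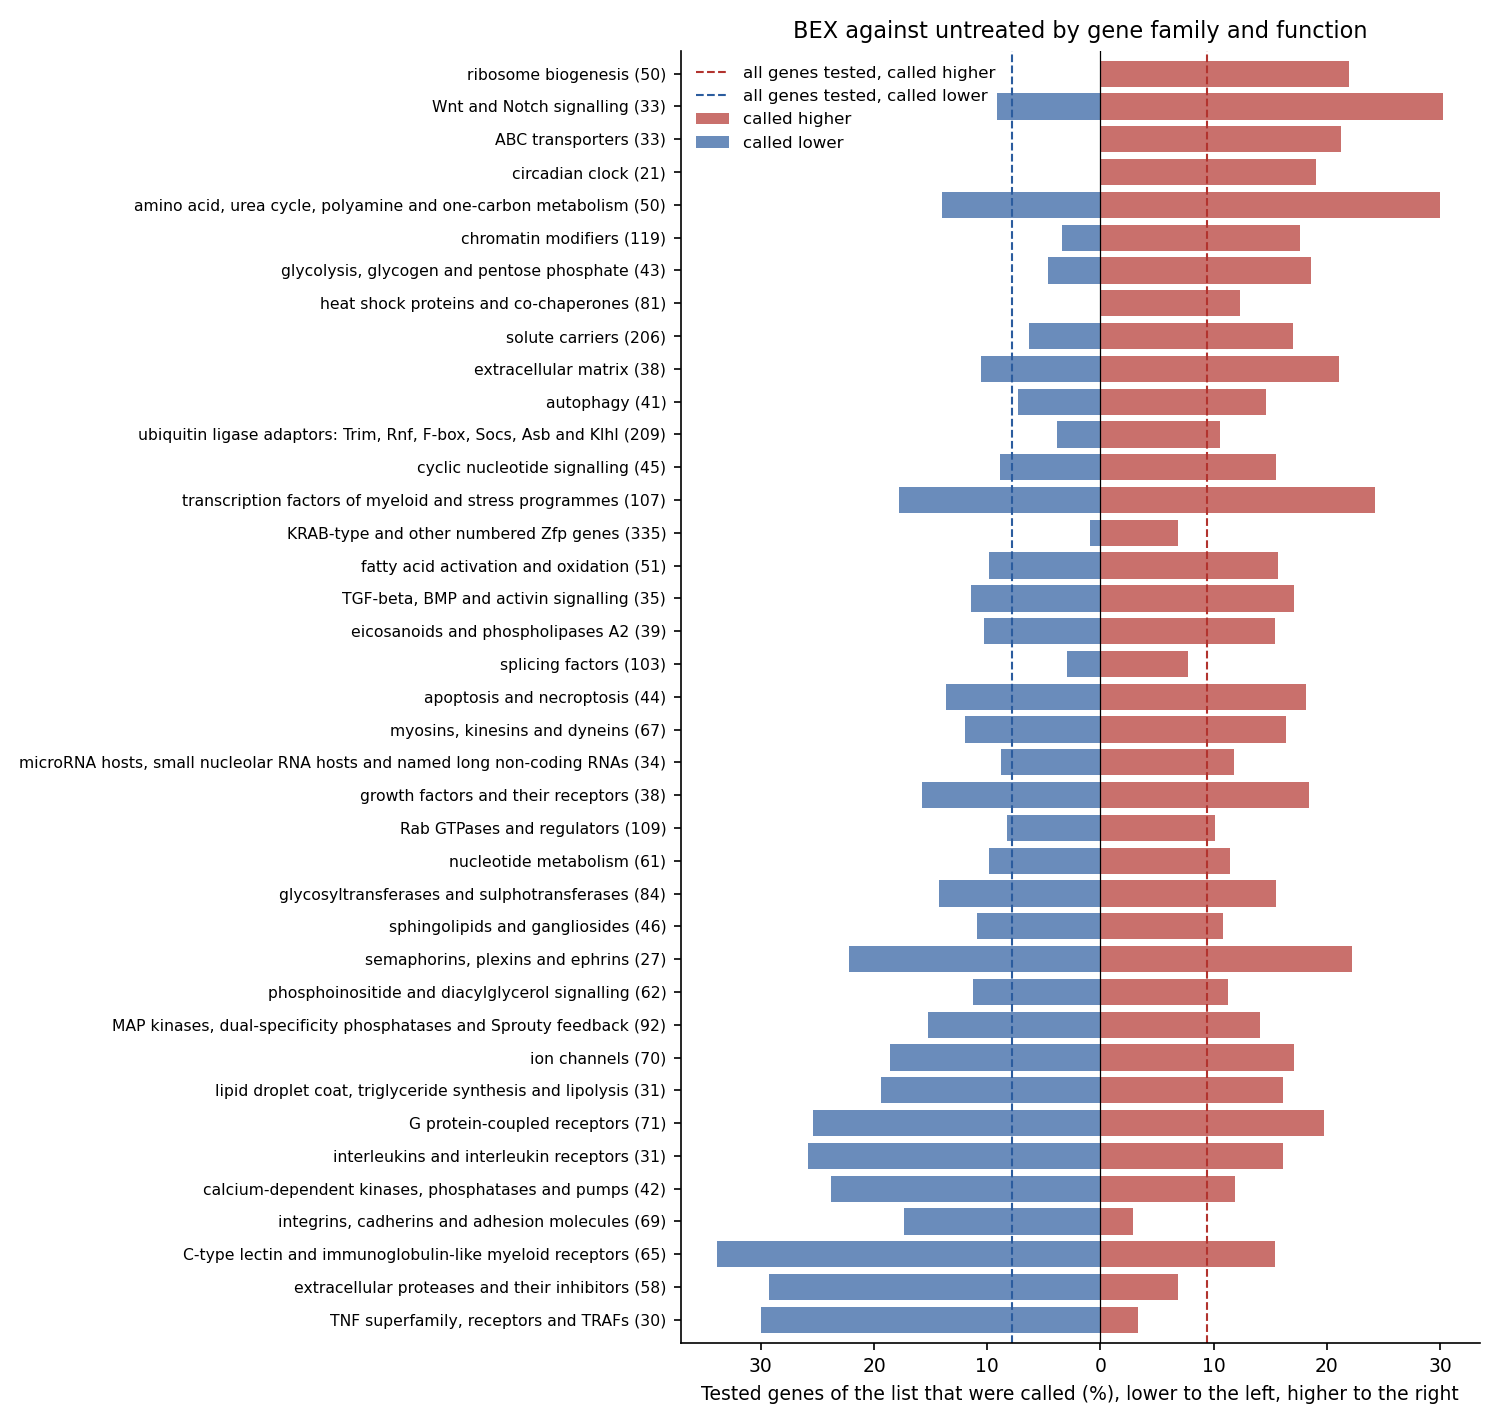
Share of tested genes called higher (right, red) or lower (left, blue) with BEX in each of 39 gene families and functions, with the number tested in brackets and the shares over all tested genes as dashed lines. Ribosome biogenesis, ABC transporters, circadian clock and heat shock genes had no gene called lower, while 30% of the TNF superfamily list and 29.3% of the extracellular protease list were lower.

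In the extracellular matrix list, 8 of 38 tested genes (21.1%) rose and 4 (10.5%) fell, with a median log2 fold change of 0.04. Col4a2, a chain of type IV collagen, went from 3.88 to 28.3, 25.6 and 24.6 CPM (log2 fold change 2.75 ± 0.19 SE, adjusted p = 5.18e-09), and Col14a1, a fibril-associated collagen, had a log2 fold change of 3.49 from a level under 1 CPM. Fam20c, the Golgi kinase that phosphorylates secreted proteins, went from 229 to 349, 358 and 353 CPM. Its relative Fam20a had 0 counts untreated. Among extracellular proteases and their inhibitors, 4 of 58 tested genes (6.9%) rose and 17 (29.3%) fell, with a median log2 fold change of -0.11. The falls included Mmp12, the collagenase Mmp13, which went from 257 to 156, 139 and 154 CPM, and Spint1, an inhibitor of serine proteases, which went from 116 to 72.8, 70.6 and 73.5 CPM. Rises included the sheddase Adam10 (log2 fold change 0.68) and the proteoglycan-cleaving Adamts15 (log2 fold change 1.85), and without BEX 1 this list had 2 genes higher.

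Growth factor genes moved both ways: 7 of 38 tested genes (18.4%) rose and 6 (15.8%) fell, with a median log2 fold change of -0.058. Hbegf and Areg, both ligands of the epidermal growth factor receptor, went in opposite directions. Hbegf went from 5.88 to 31.8, 28.8 and 30.1 CPM and Areg from 7.09 to 1.86, 2.07 and 3.27 CPM. Csf2rb2, a receptor subunit of the interleukin 3 family with a near-identical copy that makes its value uncertain, and Axl, a receptor kinase in the uptake of apoptotic cells, rose by 0.66 and 0.40 on the log2 scale. In the TGF-beta, BMP and activin list, 6 of 35 tested genes (17.1%) rose and 4 (11.4%) fell, with a median log2 fold change of -0.029. Tgfb3, a TGF-beta ligand, went from 0.45 to 3.63, 4.66 and 3.78 CPM, Smad3, a signal transducer, went from 5.32 to 13.8, 14.2 and 11.5 CPM, and the receptor gene Tgfbr2 had a log2 fold change of 0.39. Id2, a transcriptional inhibitor and target of BMP signals, went from 142 to 102, 106 and 109.6 CPM.

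In the Wnt and Notch list, 10 of 33 tested genes (30.3%) rose and 3 (9.09%) fell, with a median log2 fold change of 0.02. Dtx4, a Deltex ubiquitin ligase of the Notch pathway, went from 25.3 to 86.2, 82.5 and 83.5 CPM (log2 fold change 1.73 ± 0.074 SE, adjusted p = 1.91e-10), Lfng, a glycosyltransferase that modifies Notch receptors, went from 50.6 to 111, 119 and 105 CPM, and the receptor gene Notch1 went from 130.2 to 201, 219 and 192 CPM. Mfng, a second glycosyltransferase of the same family that was chosen after its values were seen, went from 22.1 to 59.7, 63.9 and 61.7 CPM. Dkk2, a secreted regulator of Wnt receptors, went the other way, from 48.7 to 20, 23.9 and 21.3 CPM (log2 fold change -1.16 ± 0.089 SE, adjusted p = 1.46e-07). Among semaphorins, plexins and ephrins, 6 of 27 tested genes (22.2%) rose and 6 (22.2%) fell, with a median log2 fold change of -0.034. Sema4c, Sema4a and the semaphorin receptor Plxna2 rose by 0.73, 0.46 and 0.49 on the log2 scale, and the netrin receptor Unc5b went from 33 to 21.1, 20.6 and 19.3 CPM.

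Enzymes that build glycans changed in both directions as a group: among glycosyltransferases and sulphotransferases, 13 of 84 tested genes (15.5%) rose and 12 (14.3%) fell, with a median log2 fold change of -0.042. Individual sialyltransferases differed. St6gal1, which adds sialic acid to N-glycans, went from 13.2 to 47.3, 44.7 and 42.2 CPM (log2 fold change 1.76 ± 0.11 SE, adjusted p = 7.29e-09). St3gal5, the synthase of ganglioside GM3, went from 17.1 to 46.9, 47.2 and 44.3 CPM, whereas St8sia1, which turns GM3 into GD3, went from 2.17 to 0.766, 0.634 and 0.52 CPM. St8sia1 was at a low level, and on log2(TPM + 1) its call was lost, with adjusted p = 0.124. Ext1, a polymerase of heparan sulphate, rose by 0.75 on the log2 scale and Gcnt1, which branches mucin-type O-glycans, went from 225 to 149, 144 and 153 CPM. For sphingolipids and gangliosides, 5 of 46 tested genes (10.9%) rose and 5 (10.9%) fell, with a median log2 fold change of 0.0031. Cerk, ceramide kinase, rose by 0.51 on the log2 scale and Smpd1, acid sphingomyelinase, went from 49.1 to 35.6, 34.2 and 40.6 CPM, with BEX 3 above the other BEX libraries. The call for Smpd1 was lost on both TPM scales and with no filter on low counts, with adjusted p up to 0.0706.

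Cell-surface receptors were among the most often changed genes. Of G protein-coupled receptors, 14 of 71 tested genes (19.7%) rose and 18 (25.4%) fell, with a median log2 fold change of -0.033. Gpr35, a receptor found on immune and gut cells, went from 5.2 to 25.8, 23.3 and 26.6 CPM (log2 fold change 2.28 ± 0.16 SE, adjusted p = 1.58e-08), the histamine receptor gene Hrh1 went from 18.1 to 46.2, 42 and 43.3 CPM, and S1pr1, a receptor of sphingosine 1-phosphate, went from 123 to 201, 209.7 and 209.9 CPM. Ednrb, the endothelin B receptor gene, went from 1.1 to 5.92, 6.28 and 4.25 CPM. Hcar2, the receptor of niacin and ketone bodies, which was chosen after its values were seen, went from 21.2 to 10.5, 9.59 and 9.25 CPM.

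Of C-type lectin and immunoglobulin-like myeloid receptors, 10 of 65 tested genes (15.4%) rose and 22 (33.8%) fell, with a median log2 fold change of -0.085. Falls outnumbered rises in this list in every alternative. Clec10a and Mgl2, related galactose-binding lectins whose similarity makes the split of reads between them uncertain, went from 2.42 to 12.9, 12.2 and 12.1 CPM and from 47.3 to 88.3, 88 and 88.3 CPM. Treml2 went from 24.8 to 65.9, 66.7 and 64.8 CPM and the inhibitory receptor gene Cd300a from 74 to 144, 138 and 143 CPM. Among those that fell, Cd33, an inhibitory sialic acid-binding lectin, went from 166 to 99.6, 96 and 91.6 CPM (log2 fold change -0.79 ± 0.056 SE, adjusted p = 5.11e-08). Lilrb4a, an inhibitory receptor with a closely related neighbour that makes its value uncertain, was chosen after its values were seen and went from 1229 to 863, 853 and 895 CPM.

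Interleukin genes and their receptors moved both ways: 5 of 31 tested genes (16.1%) rose and 8 (25.8%) fell, with a median log2 fold change of -0.082. Il21r, the interleukin 21 receptor gene, went from 88.3 to 219.9, 222 and 224 CPM (log2 fold change 1.33 ± 0.05 SE, adjusted p = 9.76e-11). Il1a, an agonist of the interleukin 1 receptor, and Il1rn, the antagonist of that receptor, went in opposite directions. Il1a went from 22.7 to 48.2, 50 and 51.4 CPM and Il1rn from 1113 to 742, 734 and 764 CPM (log2 fold change -0.58 ± 0.041 SE, adjusted p = 4.96e-08). The receptor gene Il17ra went from 84.2 to 43.1, 45.7 and 49.6 CPM. In the TNF superfamily list, 1 of 30 tested genes (3.33%) rose and 9 (30%) fell, with a median log2 fold change of -0.24. Tnf, the inflammatory cytokine, went from 67.4 to 38.7, 41.4 and 37.5 CPM (log2 fold change -0.78 ± 0.07 SE, adjusted p = 9.13e-07), and Tnfsf13b, a survival factor for B cells, went from 110.0 to 84.7, 73.5 and 82.5 CPM. The receptor genes Tnfrsf1b and Tnfrsf26 had log2 fold changes of -0.33 and -0.38. Of integrins, cadherins and adhesion molecules, 2 of 69 tested genes (2.9%) rose and 12 (17.4%) fell, with a median log2 fold change of -0.088. Itgb3, the beta subunit of the vitronectin receptor, went from 33.1 to 13.3, 12.3 and 13 CPM (log2 fold change -1.36 ± 0.093 SE, adjusted p = 4.75e-08), and L1cam and Alcam, cell adhesion molecules, had log2 fold changes of -0.36 and -0.35. Itga9, an integrin subunit that binds tenascin and osteopontin, rose by 1.13 on the log2 scale.

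Of MAP kinases, dual-specificity phosphatases and Sprouty feedback genes, 13 of 92 tested genes (14.1%) rose and 14 (15.2%) fell, with a median log2 fold change of 0.004. Dusp6, a phosphatase of ERK kinases, and the kinase gene Mapk7 rose by 0.49 and 0.60 on the log2 scale, whereas Map2k3, an activator of p38, went from 93.7 to 61.1, 63.2 and 62.9 CPM and the phosphatase gene Dusp4 went from 36.8 to 22.8, 25.6 and 24.3 CPM. Cdc42ep2, an effector of Cdc42, went from 4.11 to 11.8, 11.8 and 12.9 CPM, the GTPase-activating protein genes Arhgap18 and Arhgap26 went from 27.9 to 61, 61.5 and 60.4 CPM and from 34.3 to 16.7, 16.9 and 16.6 CPM, and the exchange factor gene Fgd4 rose by 0.73 on the log2 scale. Of Rab GTPases and regulators, 11 of 109 tested genes (10.1%) rose and 9 (8.26%) fell, with a median log2 fold change of -0.00058. Rab20, a GTPase of phagosomes and endosomes, went from 22.7 to 83.3, 84.7 and 85 CPM (log2 fold change 1.9 ± 0.075 SE, adjusted p = 7.41e-11), and Rilpl2, a Rab effector, went from 32.7 to 70.9, 67 and 69.1 CPM. Rab20 overlaps a non-coding gene on the opposite strand over 25.6% of its exon bases.

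For calcium-dependent kinases, phosphatases and pumps, 5 of 42 tested genes (11.9%) rose and 10 (23.8%) fell, with a median log2 fold change of -0.075. Camkk1, a kinase that activates other calmodulin-dependent kinases and AMPK, had 7 counts untreated and went from 0.197 to 7.84, 8.35 and 8.14 CPM (log2 fold change 5.34 ± 0.76 SE, adjusted p = 5.03e-08). The S100 family genes S100a10 and S100a4 and the protease subunit gene Capn2 had log2 fold changes of -0.52, -0.39 and -0.50. Without BEX 1, 3 genes of the list were called higher. For phosphoinositide and diacylglycerol signalling, 7 of 62 tested genes (11.3%) rose and 7 (11.3%) fell, with a median log2 fold change of 0.0079, and 4 were called lower without BEX 1. Plcb2, a phospholipase C, and Dgkz, a diacylglycerol kinase, rose by 0.52 and 0.33 on the log2 scale. For cyclic nucleotide signalling, 7 of 45 tested genes (15.6%) rose and 4 (8.89%) fell, with a median log2 fold change of 0.051. Adcy3, an adenylyl cyclase that shares 22.1% of its exon bases with Cenpo on the opposite strand, rose by 1.13 on the log2 scale, and Gnai2, an inhibitory G protein subunit, went from 1005 to 801, 819.9 and 808 CPM.

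Solute carriers and ABC transporters rose more often than they fell. Of solute carriers, 35 of 206 tested genes (17%) rose and 13 (6.31%) fell, with a median log2 fold change of -0.0099. Slc40a1, the iron exporter ferroportin, went from 26.6 to 63, 65 and 62.1 CPM (log2 fold change 1.25 ± 0.075 SE, adjusted p = 9.04e-09), Slco2b1, an organic anion transporter, went from 40.2 to 95.1, 95.6 and 90.7 CPM, and Slc20a1, a phosphate importer, went from 354 to 627, 613 and 616 CPM. Slco4a1, a transporter of thyroid hormone and other anions, went the opposite way, from 103 to 46.6, 46.9 and 49 CPM (log2 fold change -1.12 ± 0.06 SE, adjusted p = 3.36e-09). Of ABC transporters, 7 of 33 tested genes (21.2%) rose and 0 fell, with a median log2 fold change of 0.094. By edgeR none of the ABC list was called lower, with 2 below the untreated level at an unadjusted p under 0.05 and 0 called by DESeq2, limma-voom or limma-trend on log2(TPM + 1), 2 with length and GC offsets and 1 without BEX 3. Besides Abca1, the rises included Abcd2, a peroxisomal transporter of long acyl chains (log2 fold change 0.70), and Abcc3, an exporter of conjugates (log2 fold change 0.38). Of ion channels, 12 of 70 tested genes (17.1%) rose and 13 (18.6%) fell, with a median log2 fold change of -0.019. Tpcn2, an endolysosomal channel, and Kcnj10, an inwardly rectifying potassium channel, went from 37.7 to 83.9, 82 and 83.5 CPM and from 219 to 429, 449.9 and 411 CPM. Kcnj2, a channel of the same potassium family, went from 51.8 to 35.2, 32.8 and 32.2 CPM, and Mcoln2, a lysosomal cation channel, went from 119 to 84.2, 86.2 and 88.5 CPM.

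Transcription factors of myeloid and stress programmes were often changed: 26 of 107 tested genes (24.3%) rose and 19 (17.8%) fell, with a median log2 fold change of 0.047. Irf5, an interferon regulatory factor of inflammatory macrophages, went from 122 to 196, 197 and 198 CPM. Irf5 shares 14.1% of its exon bases with Tnpo3 on the opposite strand. Cebpd, a factor of the acute-phase response that overlaps Spidr on the opposite strand over 15% of its exon bases, went from 42.6 to 19.6, 23 and 20.6 CPM (log2 fold change -1.01 ± 0.089 SE, adjusted p = 8e-07). Hivep2, a large zinc-finger factor, was among the largest rises and went from 7.4 to 40.1, 39.2 and 38.7 CPM (log2 fold change 2.41 ± 0.12 SE, adjusted p = 4.18e-10). In the circadian clock list, 4 of 21 tested genes (19%) rose and 0 fell, with a median log2 fold change of 0.11. Per2, a repressor within the clock, went from 2.64 to 19.4, 19.2 and 18.4 CPM (log2 fold change 2.84 ± 0.21 SE, adjusted p = 7.29e-09), and Tef, an output factor, and Cry1, a repressor, rose by 0.61 and 0.51 on the log2 scale. By edgeR none of the clock genes was called lower, with 0 below the untreated level at an unadjusted p under 0.05 and 0 called by DESeq2, limma-voom or limma-trend on log2(TPM + 1). The call for Cry1 was lost with no filter on low counts (adjusted p = 0.0542).

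For chromatin modifiers, 21 of 119 tested genes (17.6%) rose and 4 (3.36%) fell, with a median log2 fold change of 0.092. Dnmt3a, a DNA methyltransferase, went from 91.6 to 164, 159 and 157 CPM, and Chd9 and Chd2, remodelling helicases, rose by 0.61 and 0.51 on the log2 scale. For numbered zinc-finger genes, many of which encode KRAB repressors, 23 of 335 tested genes (6.87%) rose and 3 (0.896%) fell, with a median log2 fold change of 0.084. Zfp369 went from 4.02 to 24.9, 23.3 and 21.8 CPM (log2 fold change 2.53 ± 0.18 SE, adjusted p = 9.14e-09), and Zfp618 went from 41.4 to 19.1, 19.2 and 19.7 CPM. With length and GC offsets 15 chromatin and 14 zinc-finger genes were called higher and 5 of each lower. Without BEX 2, 5 zinc-finger genes were lower. For splicing factors, 8 of 103 tested genes (7.77%) rose and 3 (2.91%) fell, with a median log2 fold change of 0.032, and without BEX 3 there were 13 higher. Snrnp200, a helicase of the spliceosome, rose by 0.20 on the log2 scale. Of 34 tested microRNA hosts, small nucleolar RNA hosts and named long non-coding RNAs, 4 rose and 3 fell (median 0.077), with Malat1 and Rn7s1 as the largest of each.

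Called genes of ribosome production were higher with BEX, mostly by small amounts. In ribosome biogenesis, 11 of 50 tested genes (22%) rose and 0 fell, with a median log2 fold change of 0.11. Polr1a, the largest subunit of RNA polymerase I, went from 57.7 to 98.1, 102 and 90.9 CPM (log2 fold change 0.75 ± 0.069 SE, adjusted p = 1.57e-06), and Ncl, nucleolin, went from 545 to 698, 688 and 728 CPM. Wdr43 and Ddx21, further nucleolar factors, rose by 0.28 and 0.24 on the log2 scale. By edgeR none of this list was called lower, with 2 below the untreated level at an unadjusted p under 0.05 and 0 called by DESeq2, limma-voom or limma-trend on log2(TPM + 1) and 1 without BEX 3. Among heat shock proteins and co-chaperones, 10 of 81 tested genes (12.3%) rose and 0 fell, with a median log2 fold change of 0.037. The share called higher is near the 9.45% over all genes tested and is no result about this list. With length and GC offsets 7 of its genes were called higher. Hsph1, a nucleotide exchange factor for HSP70, went from 54.4 to 69.6, 71.1 and 74.9 CPM, and the mitochondrial chaperone genes Hspd1 and Hspa9 rose by 0.23 and 0.22 on the log2 scale. By edgeR none of the heat shock list was called lower, with 5 below the untreated level at an unadjusted p under 0.05 and 0 called by DESeq2, limma-voom or limma-trend on log2(TPM + 1), 2 with length and GC offsets and 1 without BEX 2.

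Lipid genes outside the droplet coat also moved. In the list of lipid droplet, triglyceride synthesis and lipolysis genes, 5 of 31 tested genes (16.1%) rose and 6 (19.4%) fell, with a median log2 fold change of 0.073, but in DESeq2 and on log2(TPM + 1) there were 2 lower. Hilpda, an inhibitor of lipolysis at the droplet, went from 12.4 to 39.6, 42.5 and 41.2 CPM (log2 fold change 1.72 ± 0.10 SE, adjusted p = 5.76e-09), Angptl4, a secreted inhibitor of lipoprotein lipase, went from 8.16 to 16.5, 18.5 and 15.9 CPM, and Lipa, the lysosomal acid lipase, went from 328 to 493, 496 and 509.9 CPM. In fatty acid activation and oxidation, 8 of 51 tested genes (15.7%) rose and 5 (9.8%) fell, with a median log2 fold change of 0.0076. Cpt1a and Slc25a20, which pass acyl chains into mitochondria as carnitine esters, went from 103 to 168, 174 and 170.3 CPM and from 22.3 to 38.4, 38.4 and 38.2 CPM. Cd36, a fatty acid and lipoprotein receptor, went from 573 to 778, 741 and 798 CPM. In the list of eicosanoid genes and phospholipases A2, 6 of 39 tested genes (15.4%) rose and 4 (10.3%) fell, with a median log2 fold change of -0.019. Ptgs1, cyclooxygenase 1, and Tbxas1, thromboxane synthase, went from 368 to 577, 584 and 586 CPM and from 73.8 to 149.5, 151 and 154 CPM (log2 fold change 1.04 ± 0.054 SE, adjusted p = 3.8e-09 for Tbxas1). The leukotriene receptor gene Cysltr1 rose by 0.63 on the log2 scale. Hpgd, which inactivates prostaglandins and was chosen after its values were seen, went from 10.4 to 3.57, 5.24 and 4.97 CPM.

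Amino acid genes changed often: 15 of 50 tested genes (30%) rose and 7 (14%) fell, with a median log2 fold change of -0.02. Besides Arg1, the rises included Aldh18a1 of proline synthesis (log2 fold change 0.35) and Asns, asparagine synthetase (log2 fold change 0.28). Ass1, which makes argininosuccinate in the route back to arginine, went from 205 to 149, 129.9 and 156 CPM (log2 fold change -0.50 ± 0.074 SE, adjusted p = 0.000155). Without BEX 2, 4 genes of this list were called lower. In glycolysis, glycogen and pentose phosphate metabolism, 8 of 43 tested genes (18.6%) rose and 2 (4.65%) fell, with a median log2 fold change of 0.077. Pfkl, a phosphofructokinase, went from 39.6 to 59.6, 65.1 and 61.3 CPM and Hk2, a hexokinase, went from 111 to 149, 146 and 144 CPM. With length and GC offsets 13 genes of that list were higher. In nucleotide metabolism, 7 of 61 tested genes (11.5%) rose and 6 (9.84%) fell, with a median log2 fold change of 0.0035. Gda, guanine deaminase, went from 79.5 to 146, 156 and 145 CPM (log2 fold change 0.91 ± 0.06 SE, adjusted p = 4.46e-08), and Nt5e, the ecto-nucleotidase that makes extracellular adenosine, went from 154 to 95.5, 96.6 and 98.7 CPM (log2 fold change -0.67 ± 0.052 SE, adjusted p = 1.46e-07). Tymp, thymidine phosphorylase, had the largest fall of this list (log2 fold change -2.55), but 42.0% of its exon bases are shared with Sco2 on the same strand, and the pair together measured 6.47 CPM untreated and 4.98, 6.39 and 5.62 CPM with BEX.

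Among myosins, kinesins and dyneins, 11 of 67 tested genes (16.4%) rose and 8 (11.9%) fell, with a median log2 fold change of -0.072. Kif19a, a kinesin, rose from 0.422 CPM (log2 fold change 3.42 ± 0.59 SE, adjusted p = 1.59e-05), and the class I myosin genes Myo1c and Myo1g had log2 fold changes of -0.29 and -0.36. With length and GC offsets 7 genes of this list were called higher. For apoptosis and necroptosis, 8 of 44 tested genes (18.2%) rose and 6 (13.6%) fell, with a median log2 fold change of -0.022, and 3 were lower without BEX 2. Bcl2a1a, Bcl2a1b and Bcl2a1d, near-identical survival genes among which reads cannot be assigned with certainty, together measured 304 CPM untreated and 520.3, 489 and 501 CPM with BEX. Gsdme, a pore-forming gasdermin, went from 49 to 30.4, 30.5 and 28.9 CPM. In autophagy, 6 of 41 tested genes (14.6%) rose and 3 (7.32%) fell, with a median log2 fold change of 0.055, and none was lower without BEX 1 or in DESeq2. Sesn2, a stress-induced inhibitor of mTORC1, went from 18.8 to 34.8, 34.4 and 32.2 CPM (log2 fold change 0.84 ± 0.094 SE, adjusted p = 8.85e-06). Of ubiquitin ligase adaptors, 22 of 209 tested genes (10.5%) rose and 8 (3.83%) fell, with a median log2 fold change of 0.026, and 5 were lower without BEX 1. Asb4, a SOCS-box adaptor, went from 1.43 to 10.1, 11.9 and 12.5 CPM (log2 fold change 3.01 ± 0.32 SE, adjusted p = 2.7e-07), and Itch, a ligase of immune signalling, rose by 0.69 on the log2 scale.

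Some strongly changed genes, not among the genes named per list, were chosen after their values were seen, from the smallest adjusted p. Ikbke and Irak2, kinases of innate immune signalling, went from 61.9 to 179, 187 and 172 CPM and from 68.4 to 156, 162 and 158 CPM. The chemokine gene Cxcl2 went from 40.7 to 144, 151 and 147 CPM and Ehd1, an ATPase of endocytic recycling, went from 70 to 238, 240.1 and 225 CPM. Gatm, which makes the precursor of creatine from arginine and glycine, went from 177 to 362, 341 and 348 CPM. On the falling side, Fam129b went from 429 to 205, 205 and 208 CPM (log2 fold change -1.06 ± 0.044 SE, adjusted p = 1.01e-10) and Lmna, which encodes the nuclear lamins A and C, went from 283 to 154, 159 and 163 CPM. Ch25h, which makes the oxysterol 25-hydroxycholesterol, went from 217 to 114, 116 and 117 CPM, and Ccnd3, a G1 cyclin, went from 125 to 71.8, 73.7 and 73.2 CPM. Tlr2, a receptor of bacterial lipoproteins, went from 179 to 113, 102 and 111 CPM. In each of these genes the BEX libraries were closer to each other than to the untreated library, which follows from how they were chosen and is no further support.

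Among the 15 largest rises of genes with at least 20 counts untreated, further members were Pram1, an adaptor protein of myeloid cells, which went from 1.15 to 13.6, 18.1 and 15.4 CPM, Rgs9, a regulator of G protein signalling, which went from 1.58 to 7.37, 8.38 and 7.72 CPM, and Cxcl14, a chemokine, which went from 2.36 to 9.43, 10.3 and 9.28 CPM. Pram1 shares 87.5% of its exon bases with a predicted gene on the same strand. Rgs9 was not called on log2(TPM + 0.1) (adjusted p = 0.0603) or log2(TPM + 1). The 15 largest falls, taken among genes averaging at least 20 counts in the BEX libraries and leaving out numbered Gm and Rik genes as for the rises, were mostly of genes at low levels. Several of them rest on shared exons. Nptxr, a neuronal pentraxin receptor, went from 7.37 to 2.51, 3.8 and 0.099 CPM, and its call was lost in DESeq2 (adjusted p = 0.669) and in 4 other alternatives. It shares exons with Npcd on the same strand, whose level was 3.71 to 6.73 CPM with BEX against 0 CPM untreated. The sum of Npcd and Nptxr was 7.37 CPM untreated and 6.22, 7.63 and 6.83 CPM with BEX, so the untreated value lay within the BEX values. Ugt1a9, Ugt1a5 and Ugt1a2, glucuronosyltransferase isoforms that share about 59.3% to 59.9% of their exon bases with each other, fell by 1.58, 1.5 and 1.2 on the log2 scale. The 8 measured Ugt1a genes together measured 346 CPM untreated and 314, 319 and 316 CPM with BEX. Fsbp, which shares 47.5% of its exon bases with Rad54b, went from 6.86 to 2.56, 1.3 and 3.76 CPM, and the pair together measured 19.6 CPM untreated and 18.2, 19.3 and 17.4 CPM with BEX.

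Falls without shared exons of annotated expressed genes included Ptchd1, a patched-domain membrane protein, which went from 2.67 to 0.855, 0.716 and 0.742 CPM, Iglon5, a cell adhesion molecule, which went from 2.73 to 0.737, 0.992 and 1.21 CPM, Megf11, an EGF-like receptor, which went from 1.52 to 0.531, 0.413 and 0.668 CPM, and Cav1, the caveolar protein caveolin 1, which went from 2.11 to 0.766, 1.18 and 0.816 CPM. Otc, a urea cycle enzyme gene, went from 1.41 to 0.56, 0.358 and 0.742 CPM, and its call was lost without BEX 1, without BEX 2 and in 4 further alternatives, with adjusted p up to 0.279. The calls for Ugt1a2, Cav1, Fsbp and Megf11 were lost with no filter on low counts. That for Ugt1a2 was also lost without BEX 2 and on both TPM scales. That for Fsbp was also lost on both TPM scales, and that for Megf11 on log2(TPM + 1). Ptchd1, Iglon5, Megf11, Cav1 and Otc were at low levels, between 1.41 and 2.73 CPM untreated.

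**Figure D5:**
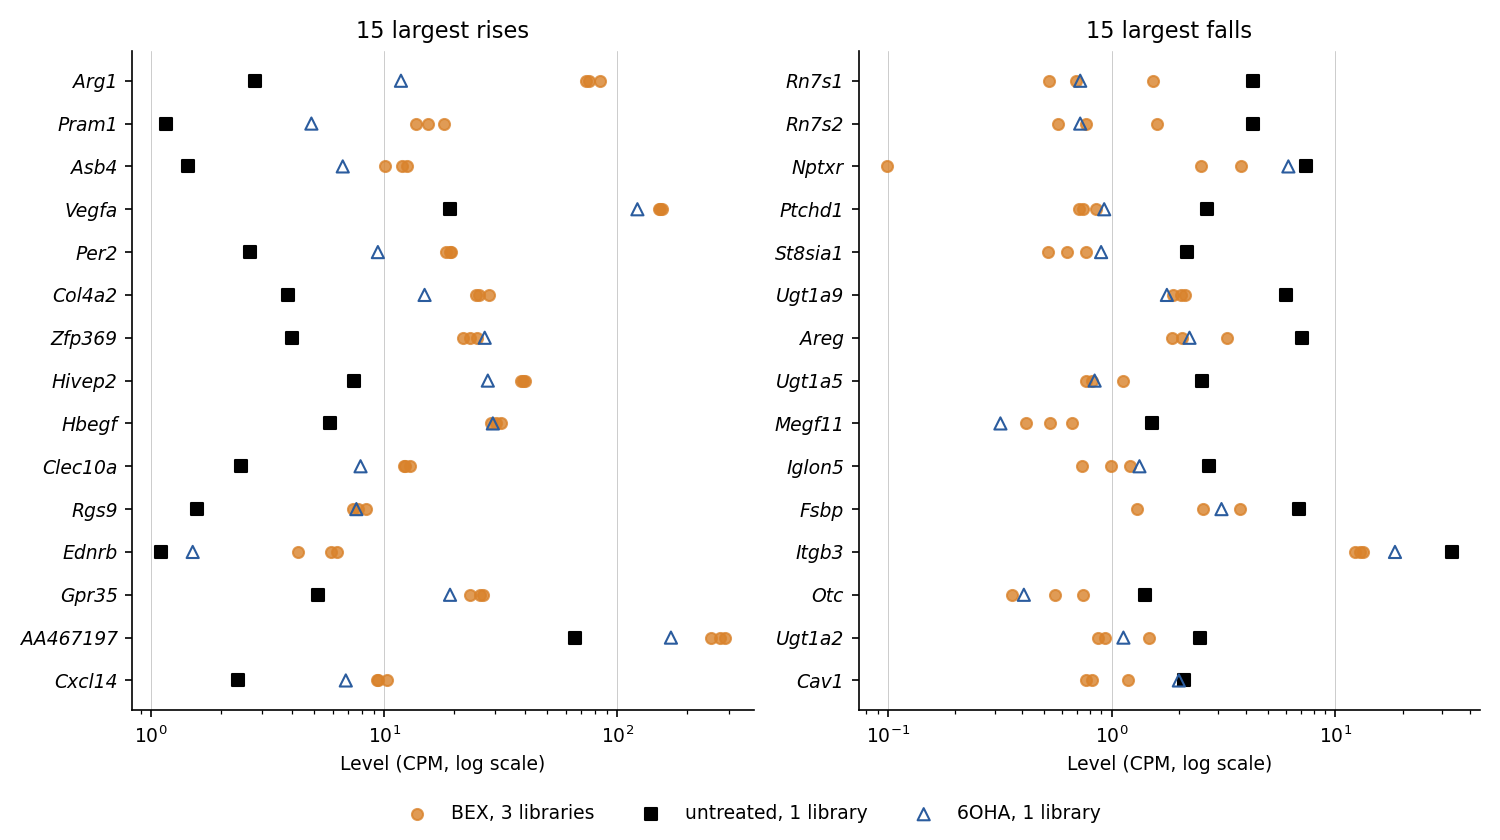
Levels (CPM, log axis) of the 15 largest rises and the 15 largest falls, with the 3 BEX libraries as circles, the untreated library as a square and the 6OHA library as a triangle. The untreated value lies outside the BEX values for each of these genes, as the calling rule requires. The 6OHA value lies within them for 2 of the rises and 7 of the falls. The BEX values of Nptxr spread from 0.099 to 3.8 CPM.

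Some genes had 0 counts in the untreated library, which allows up to 0.0844 CPM at 3 counts, so their folds are lower bounds against that limit. Bach2, a transcriptional repressor known from B cells, was at least 22.3-fold higher with BEX, at 1.33, 2.2 and 2.1 CPM, but on log2(TPM + 1) it was not called (adjusted p = 0.234). Bglap3, an osteocalcin-related gene, was at least 15.8-fold higher, at 1.21, 1.63 and 1.16 CPM. It is a near copy of Bglap and Bglap2, which were chosen after their values were seen, and these genes together measured 0.422 CPM untreated and 4.24, 5.68 and 4.45 CPM with BEX. Fam20a, a partner of Fam20c, was at least 14.5-fold higher, at 1.5, 1.07 and 1.09 CPM, and Tubg2, a gamma-tubulin, at least 12.8-fold higher, at 0.973, 1.02 and 1.24 CPM. These limits and bounds cover counting error only.

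The response to BEX was then set against the 6OHA library by the direct contrast in the same fit, in which 9.06% of the tested genes were called. This contrast uses the same BEX libraries as the comparison with untreated cells, so the values of both are not independent. Of the 2299 genes called between BEX and untreated, 547 (23.8%) were also called between 6OHA and BEX. Of the 205 genes named by rule, 87 were called between 6OHA and BEX. In 75 of these the 6OHA value lay on the untreated side of the BEX values, and in 12 it lay further out. The genes were named largely for their change between BEX and untreated, with the same BEX libraries. That choice favours 6OHA values on the untreated side, so the split of 75 and 12 is no result about 6OHA. Of the 15 largest rises 11 differed, and of the 15 largest falls 1 did. The falls were mostly of genes at low levels, where a difference is harder to call. These counts therefore do not show that 6OHA shared the falls more than the rises. Arg1 was at 11.8 CPM with 6OHA, a log2 difference of -2.72 from BEX (adjusted p = 7.63e-10). Camkk1 was at 0.435 CPM (-4.21, adjusted p = 1.13e-06) and St6gal1 at 19.8 CPM (-1.17, adjusted p = 1.94e-06). Gda, at 78.2 CPM, and Smad3, at 5.24 CPM, were near their untreated levels with 6OHA and differed from BEX by -0.93 and -1.32 (adjusted p = 3.82e-07 and 0.000246). Abca1 went the other way and was higher with 6OHA, at 1425 CPM (0.85, adjusted p = 8.69e-09). For Hbegf, Rgs9, Hrh1, Slc20a1 and Tpcn2 the difference did not pass the test, with 6OHA at 29.2 CPM, 7.59 CPM, 43.2 CPM, 611 CPM and 83.4 CPM, which does not show that the compounds act alike. With 1 library of 6OHA, these differences have no replicate check on its side.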

How the data were processed

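Poly-A RNA was sequenced from stranded libraries, per the labels' protocols. For 5 libraries (1 of 6OHA, 3 of BEX, 1 untreated) the authors deposited counts, TPM and FPKM per gene on mm10. The submitters' processing notes list HISAT2 2.1.0, StringTie 2.1.3b, Bowtie2, Trimmomatic 0.38, SAMtools 1.9 and bcl2fastq 2.20.0, and their roles and the strand setting of counting are not given in the sources used here. Deposited counts entered every main test, deposited TPM entered alternatives only, and deposited FPKM were not used. Depth was 33823181 to 40545305 counts per library. A count of 0 allows up to 3 counts.

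Genes whose counts averaged at least 20 were fitted in 3 groups with TMM factors in edgeR 4.0.16 (R 4.3.3; glmQLFit, glmQLFTest, two-sided, Benjamini-Hochberg adjustment at 0.05). BEX replicates alone gave the spread (2 residual and a median of 13 prior degrees of freedom), and the median SE of a log2 fold change was 0.092. The pipeline was tested on simulated data. Alternatives used total-count or RLE scaling, DESeq2 1.42.0, limma 3.58.1 (voom, and trend on log2 of TPM plus 1 or 0.1), the older edgeR method, other filters (filterByExpr, a mean of at least 100 counts, none), no requirement on sides, only the BEX and untreated libraries, and leaving out each BEX library. Offsets from transcript length and GC content (GENCODE, 86.0% of tested genes) were chosen after seeing the data.

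The members, the 40 gene lists and the naming rule were chosen with earlier results of these data known. The rule named the 15 largest rises (at least 20 counts untreated) and falls, the 10 largest gains and losses in CPM, called genes with at most 3 counts in a group, Plin2, Tgm2, Arg1 and Ccl6, and per list the 4 called genes with the smallest adjusted p and the largest change. Of the lists, 39 are described, and 1 list and some genes that the rule named are not reported here. Promoter windows came from RefSeq (GRCm38.p6), and Tgm2 and Arg1 had none there.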

Additional observations from a re-analysis of the deposited data

Results flagged for a closer look

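Among the 15 largest rises and falls, the 10 largest gains and losses in CPM, the called genes with at most 3 counts in a group, and Plin2, Tgm2, Arg1 and Ccl6, the direct contrast of 6OHA and BEX was called with a log2 difference of at least 1 in size for 6 genes. The log2 difference, 6OHA minus BEX, was -2.72 for Arg1 (11.8 CPM with 6OHA and 77.7 CPM as the BEX mean), -1.69 for Pram1 (4.87 and 15.7 CPM), -1.02 for Per2 (9.39 and 19 CPM) and -1.85 for Ednrb (1.51 and 5.49 CPM). Npcd and Bglap3 had 0 counts with 6OHA, and their fitted differences of -10.45 and -8.59 depend on the prior count and are no measure of size. Npcd shares exons with Nptxr, and Bglap3 has near copies. With 1 library of 6OHA these differences have no replicate check on that side.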

How the results depend on the processing

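The number of genes called depended on the filter and the test more than on the scaling. With no filter on low counts 722 genes were higher, 494 lower and 33 at least 2-fold lower, and 38 of the named genes differed between 6OHA and BEX against 87. DESeq2 called 635 genes lower, 76 at least 2-fold higher and 14 at least 2-fold lower. On log2(TPM + 0.1), 434 genes were lower, 28 of them at least 2-fold, and 50 named genes differed between 6OHA and BEX. On log2(TPM + 1) these numbers were 423, 18 and 47. With a mean of at least 100 counts, 18 genes were at least 2-fold lower. The cause of these differences was not tested. Leaving out each BEX library in turn gave 1093 to 1457 genes higher, 795 to 1068 lower, 125 to 143 at least 2-fold higher, 51 to 53 at least 2-fold lower, and 79 to 93 named genes different between 6OHA and BEX. Of 205 named genes, 176 kept their call in every alternative that tested them and none reversed. No paired analysis was possible because the BEX and untreated groups share 1 replicate number. A lone untreated library, of which neither solvent nor time is given, limits every comparison, since its own deviation and a response to BEX cannot be told apart.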
